A study of Homo sapiens with 6 samples.

Results

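The tetraspanin genes were examined in LX-2 cells after knockdown of ADAMTS12. Members were the rows whose gene symbol is TSPAN followed by a number, or is CD9, CD37, CD53, CD63, CD81, CD82 or CD151, which gave 29 of the 60669 genes in the table. Of these, 20 reached a mean of 10 normalized counts across all 6 libraries and were tested, along with 15637 of all genes. LX-2 is an immortal human line of hepatic stellate cells, which on activation become the main source of fibrous matrix in injured liver. Both groups were wild-type LX-2 cells transfected with Lipofectamine RNAiMAX for 48 h. The siADAMTS12 group (3 libraries) received an siRNA against ADAMTS12, a secreted metalloprotease, and the siCTL group (3 libraries) a commercial negative control siRNA. The labels give 1 line and 1 sequence for the ADAMTS12 siRNA, and they do not say whether libraries of a group came from separate cultures, so the p-values measure only the spread between these libraries.

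Tetraspanins are small membrane proteins that cross the bilayer several times and hold integrins, immunoglobulin superfamily proteins, proteases and one another in lateral assemblies. Several of them mark extracellular vesicles and late endosomes, several set the strength of adhesion to matrix, and the TspanC8 subgroup escorts the sheddase ADAM10 out of the endoplasmic reticulum. In the liver, CD81 is best known as an entry receptor for hepatitis C virus.

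The targeted gene fell in the labelled libraries: ADAMTS12 was at 13709, 12235 and 13423 normalized counts with siCTL and at 4083, 3449 and 3687 with siADAMTS12 (log2 fold change -1.81 ± 0.07 SE, limma adjusted p = 4.81e-08). Normalized counts summed to between 33576945 and 34072515 per siCTL library and between 30678468 and 31415206 per siADAMTS12 library. Of 11 stellate cell and fibroblast markers, 9 had a mean of at least 10, while LRAT, which stores vitamin A in quiescent stellate cells, was at 0 in every library. These markers summed to 392000 to 431619 with siCTL and 311414 to 333927 with siADAMTS12. Of the 9 that reached this mean and were tested, 4 were called lower and 0 higher, beside 15.5% and 11.5% over all genes tested. VIM went from 192482, 212010 and 200462 to 139537, 130409 and 142753, while SPARC was at 39768, 41708 and 41421 against 40003, 45778 and 41138. DES was at 5 in siCTL replicate 3 and at 0 elsewhere. Hepatocyte markers summed to 17 to 27 per library and leukocyte markers to 103 to 127, with APOB, TTR, CD3E and MS4A1 at 0 throughout. Endothelial markers summed to 139 to 157 with siCTL and 65 to 79 with siADAMTS12, and epithelial markers to 283 to 298 and 233 to 262. Most of the leukocyte sum was CD14 (87 to 122 per library), and most of the epithelial sum was KRT7 (226 to 290).

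Levels in control cells are compared between genes only after division by the length of a representative transcript. By this measure CD63, a tetraspanin of late endosomes and secreted vesicles, made up 53.0% of the summed level of the 20 tested members, at 21712.5 normalized counts per kilobase. CD151, a partner of laminin-binding integrins, made up 14.6% (5982.3 per kilobase) and CD81 12.4% (5090.6 per kilobase). These 3 genes together held 80.1% of the family's level per kilobase, and 73.8% when the union of all exons was used as the length. CD9, a vesicle and adhesion tetraspanin, followed at 1796.5 per kilobase, then TSPAN17 at 1135.4.

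Below them, TSPAN4, TSPAN3, TSPAN5 and CD82 stood at 983, 922, 772 and 694 normalized counts per kilobase in that order. TSPAN6 at 434, TSPAN9 at 274, TSPAN15 at 256, TSPAN33 at 215, TSPAN14 at 197 and TSPAN18 at 165 formed the middle of the family. The lowest tested members were TSPAN31 at 122, TSPAN10 at 93.6, TSPAN2 at 53.0, TSPAN12 at 41.5 and TSPAN13 at 15.3. Of the 19 neighbouring pairs in this order, 4 had siCTL ranges that overlap: TSPAN17 with TSPAN4, TSPAN5 with CD82, TSPAN9 with TSPAN15, and TSPAN15 with TSPAN33. The order also depends on the length used, since TSPAN3 moved from rank 7 to rank 4 and TSPAN4 from rank 6 to rank 9 with the exon union.

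**Figure D1:**
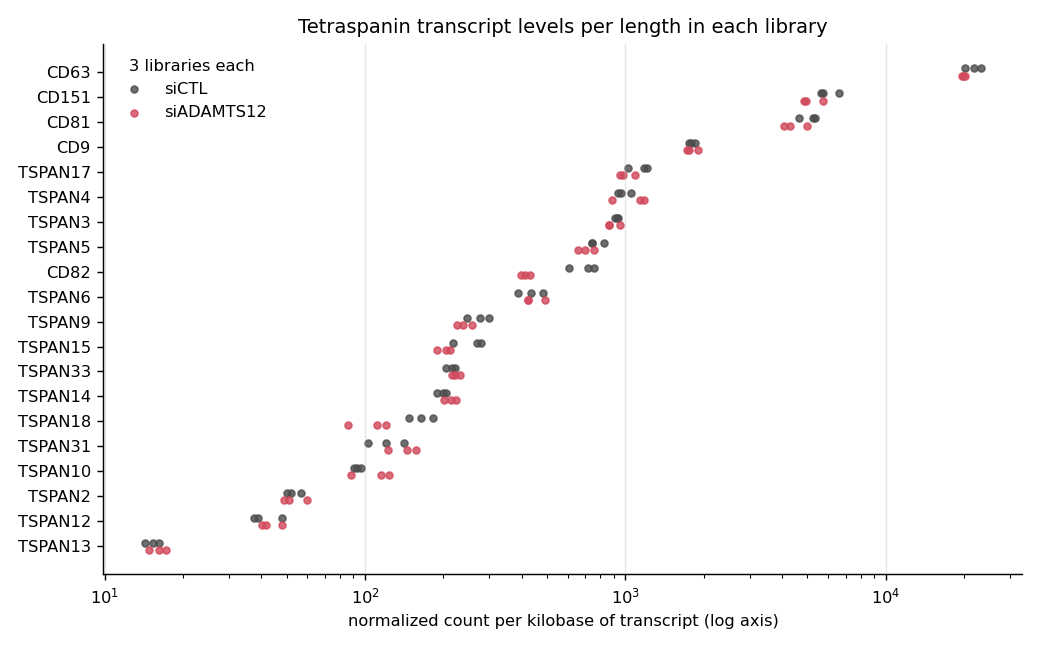
Normalized count per kilobase of transcript (log axis) of the 20 tested tetraspanins, with 1 point for each of the 3 siCTL and 3 siADAMTS12 libraries. CD63 stands at the top, CD151 and CD81 follow, and the points of the groups are apart for CD82, TSPAN18 and TSPAN15.

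The other 9 members were under the minimum. CD37 and TSPAN32, which are expressed in leukocytes, TSPAN8, a tetraspanin of digestive epithelium, and TSPAN16 were at 0 in all 6 libraries. TSPAN7 and TSPAN19 each had 1 normalized count in 1 siADAMTS12 library and 0 elsewhere. CD53, a leukocyte tetraspanin, ranged from 2 to 8 with siCTL and from 5 to 10 with siADAMTS12, TSPAN1 from 3 to 9 and from 5 to 10, and TSPAN11 from 3 to 16 and from 4 to 12. None of these 9 genes was tested.

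With siADAMTS12, 3 of the 20 tested tetraspanins fell (limma adjusted p under 0.05) and none rose. Over all genes tested, 15.5% were called lower and 11.5% higher, and the share of members called lower, 15.0%, was near the background. The members that fell were CD82, TSPAN18 and TSPAN15, and they were also the only members whose groups did not overlap. Over all genes 21.7% were lower and 19.2% higher without overlap. Without adjustment, 6 members had p under 0.05 toward lower levels and 0 toward higher levels. The share of all genes under that unadjusted limit was not counted, so these numbers have no background beside them. The median log2 fold change of the members was -0.02, against 0.005 over all genes, with 9 members above 0 and 11 below.

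**Figure D2:**
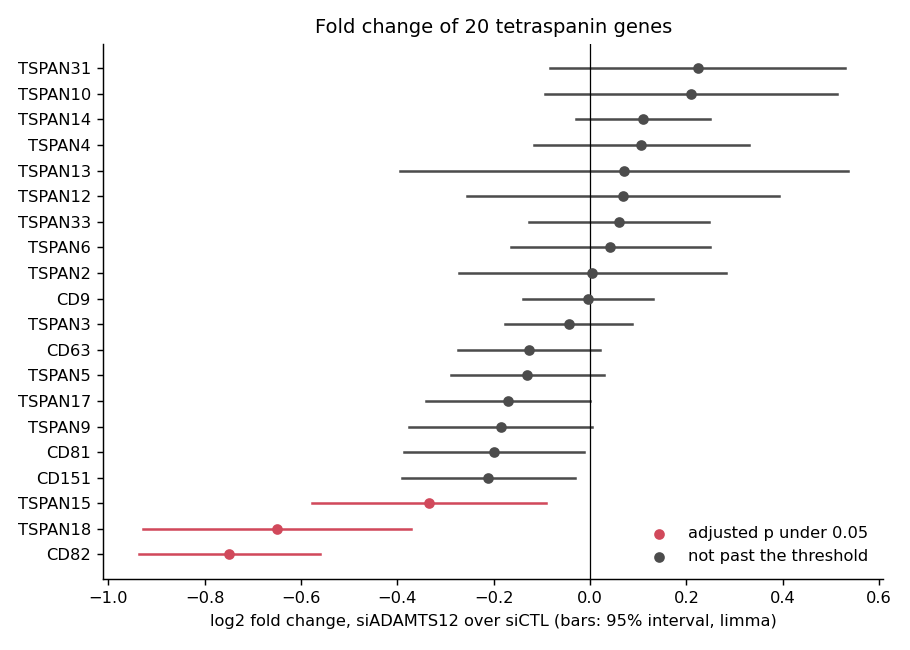
Log2 fold change (siADAMTS12 over siCTL) of each of the 20 tested tetraspanins, with bars for the 95% interval from limma and red points for adjusted p under 0.05. CD82 at -0.75 and TSPAN18 at -0.65 lie apart from the rest, and the intervals of the 17 members not past the threshold run from -0.39 at the lowest bound to 0.53 at the highest.

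An siRNA can also lower transcripts whose 3' UTR pairs with positions 2 to 8 of its guide strand, so the sequence of the ADAMTS12 siRNA was set against the members' transcripts in GENCODE release 29 models on GRCh38. The strands are shown with the target letters GAGGGAA, and their complement in the guide, in capitals, because the same letters recur in the 3' UTRs of 2 of the 3 members that fell.
siRNA sense strand: gccaaaguuugGAGGGAAa
guide strand: uUUCCCUCcaaacuuuggc

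CD82 (chr11:44564427-44620363, plus strand) carries the 7 letters in its 3' UTR at chr11:44619784-44619802, in a 19-base window with 12 bases identical to the sense strand. TSPAN15 (chr10:69451473-69507669, plus strand) carries them at chr10:69507368-69507386 and chr10:69507395-69507413. TSPAN18 (chr11:44726465-44932421, plus strand) holds a shorter 3' UTR match at chr11:44931459-44931477, AGGGAA followed by an A, and has GAGGGAA 1 time in its coding sequence, as does TSPAN33. The windows that face the guide are printed 5′ to 3′ on the transcript strand with the matching letters in capitals.
CD82: aaaaaattgggGAGGGAAg
TSPAN15, first site: cctcggggcagGAGGGAAg
TSPAN15, second site: gggaagggcagGAGGGAAg
TSPAN18: ggctggtcatgaAGGGAAa

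TSPAN9 and TSPAN14, which did not pass the threshold, hold the full 7 letters as well and are shown to set beside these windows. TSPAN9 has them at chr12:3283148-3283166 and chr12:3284374-3284392, and TSPAN14 at chr10:80523043-80523061, chr10:80528190-80528208 and chr10:80528903-80528921, in a 3' UTR of 15147 bases.
TSPAN9, first site: gctgccctgtgGAGGGAAg
TSPAN9, second site: ctgctgggaagGAGGGAAt
TSPAN14, first site: catctatggtgGAGGGAAg
TSPAN14, second site: tgaggatcaggGAGGGAAg
TSPAN14, last site: gttccactgggGAGGGAAc

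Matches were read on the transcript strand only. Of the 20 tested members, 4 had GAGGGAA in the 3' UTR, as did 15.6% of the 12610 genes searched. Of these 4 members, 2 fell (CD82 and TSPAN15), and over all genes with that match 35.9% were lower and 8.88% higher. The shorter AGGGAAA without the 7 letters was found in TSPAN3, TSPAN13 and TSPAN18, of which 1 fell, and over all such genes 27.0% were lower. AGGGAA alone was found in TSPAN31 and TSPAN33, neither of which passed the threshold. The 11 members with no match included 0 lower, and 12% of all genes with no match were lower. These classes were read on the representative transcript of each gene. With any protein-coding transcript searched, 5 tested members held GAGGGAA, the added member being TSPAN31 (log2 fold change 0.22). TSPAN6, counted above as having no match, held AGGGAAA in another transcript. The median 3' UTR length was 1141 bases in the members and 1138 bases over all genes searched. A match is a description of letters, and its part in any fold change was not tested.

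**Figure D3:**
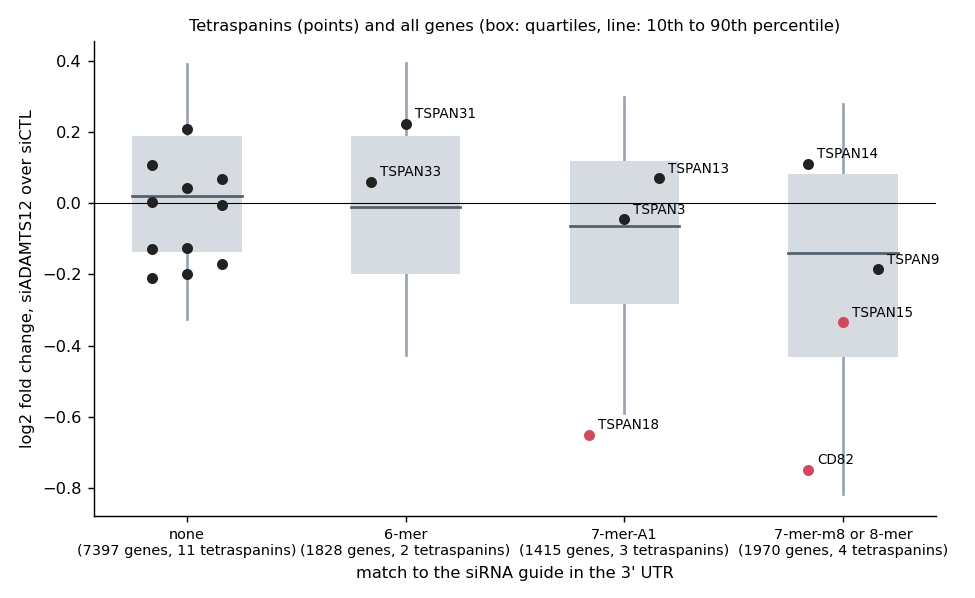
Log2 fold change (siADAMTS12 over siCTL) by the best match to the siRNA guide in the 3' UTR; boxes give the quartiles and lines the 10th to 90th percentile of all genes searched, and points are tetraspanins. The median over all genes is 0.02 with no match and -0.14 with GAGGGAA, and CD82, TSPAN15, TSPAN9 and TSPAN14 lie in that last class between -0.75 and 0.11.

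Of the 5 tetraspanins grouped here under adhesion and migration, 2 were lower, CD82 and TSPAN18, and the median log2 fold change was -0.21, beside 15.5% lower over all genes. CD82, known as a suppressor of metastasis that restrains cell migration, was at 1645, 1731 and 1391 normalized counts in the siCTL libraries and at 981, 906 and 939 in the siADAMTS12 libraries. Every siADAMTS12 library was well below every siCTL library. The log2 fold change was -0.75 ± 0.09 SE (limma adjusted p = 7.17e-05), which left 59.5% of the control level (95% interval 52.3 to 67.8%). In bulk RNA such a value cannot tell fewer cells that express the gene apart from less RNA per cell.

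TSPAN18, a tetraspanin linked to store-operated calcium entry in endothelial cells, was at 625, 697 and 775 normalized counts with siCTL and at 363, 509 and 472 with siADAMTS12. The groups did not overlap, and siADAMTS12 replicate 1 was the lowest library. Its log2 fold change was -0.65 ± 0.13 SE (limma adjusted p = 0.00295), leaving 63.7% of the control level (52.6 to 77.3%). Of the 2 tested endothelial markers KDR was called lower, at 120, 111 and 113 against 57, 53 and 50. The other, VWF, was not called, at 27, 11 and 22 against 11, 11 and 7. PECAM1 was at 7 or less and CDH5 at 12 or less in every library. The part of these markers in the TSPAN18 result was not tested.

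CD151 was at 10172, 8713 and 8843 normalized counts with siCTL and at 8842, 7509 and 7613 with siADAMTS12. Replicate 1 was the highest library of both groups, and the groups overlapped only through it. The log2 fold change was -0.21 ± 0.08 SE (limma adjusted p = 0.0788, or 0.00532 with the replicate number as a block). TSPAN9, best studied in platelets, was at 1188, 1284 and 1053 against 1105, 1023 and 966 (log2 fold change -0.19 ± 0.09 SE, limma adjusted p = 0.137). TSPAN4, which organizes migrasomes, the vesicles left behind on the retraction fibres of migrating cells, was at 1539, 1368 and 1403 against 1719, 1294 and 1657. Its siADAMTS12 libraries lay on both sides of the control range (log2 fold change 0.11 ± 0.10 SE, limma adjusted p = 0.481). Without siADAMTS12 replicate 2 the TSPAN4 value was 0.23 with an adjusted p of 0.0442.

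Among the vesicle and late endosome tetraspanins, 0 of 4 passed the threshold, beside 15.5% lower and 11.5% higher over all genes. CD63 was at 21460, 19763 and 22677 normalized counts with siCTL and at 19807, 19248 and 19378 with siADAMTS12. Of the siADAMTS12 libraries, 2 lay below the whole control range and replicate 1 just inside its lower end (log2 fold change -0.13 ± 0.07 SE, 95% interval -0.27 to 0.02). CD9 was nearly level, at 2892, 2805 and 2743 against 2977, 2746 and 2698, and its interval ran from -0.14 to 0.13 on the log2 scale. TSPAN6, an endosomal tetraspanin, was at 1065, 954 and 856 against 1085, 936 and 935 (log2 fold change 0.04 ± 0.09 SE). CD81 was at 8144, 8001 and 7068 with siCTL and at 7597, 6508 and 6150 with siADAMTS12, with overlapping groups in which each siADAMTS12 library was below the siCTL library of its number. Its log2 fold change was -0.20 ± 0.09 SE (limma adjusted p = 0.107, or 0.0151 with the replicate block).

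**Figure D4:**
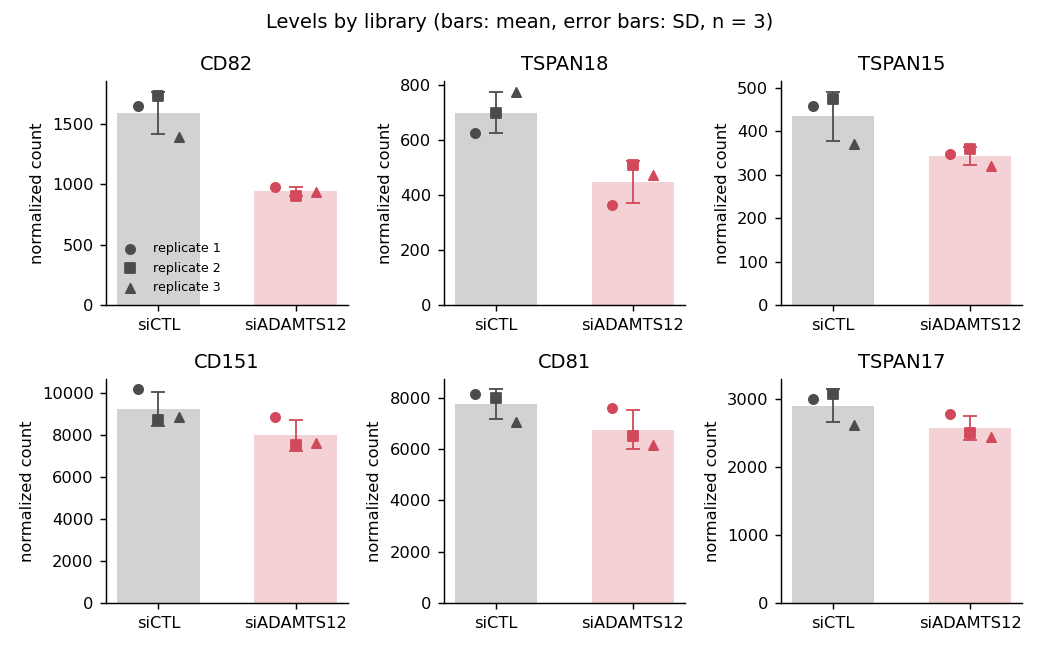
Normalized counts of 6 tetraspanins in each library, with bars for the mean, error bars for the SD (n = 3) and a marker shape for each replicate number; each vertical axis starts at 0. The groups are apart for CD82, TSPAN18 and TSPAN15, while CD151, CD81 and TSPAN17 overlap but are lower in each same-numbered pair.

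Of the 6 TspanC8 genes, 1 fell, beside 15.5% lower over all genes. TSPAN15, the subgroup member best known for directing ADAM10 to N-cadherin, was at 459, 475 and 370 normalized counts with siCTL and at 349, 360 and 320 with siADAMTS12. The highest siADAMTS12 library, at 360, was just below the lowest siCTL library, at 370. The log2 fold change was -0.33 ± 0.11 SE, which left 79.3% of the control level (limma adjusted p = 0.0439). This call was lost in 8 of 14 alternative fits, among them those without siCTL replicate 1 (adjusted p = 0.131) or 2 (0.148) and without siADAMTS12 replicate 1 (0.0747), 2 (0.0502) or 3 (0.147). Adjusted p ranged from 0.0119 to 0.172 over the alternatives.

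The remaining TspanC8 genes did not pass the threshold. TSPAN17 was at 2993, 3074 and 2619 against 2774, 2499 and 2439 (log2 fold change -0.17 ± 0.08 SE, limma adjusted p = 0.126, or 0.0422 with the replicate block). TSPAN5 was at 2786, 2511 and 2497 against 2550, 2216 and 2360 (-0.13 ± 0.07 SE). Both had overlapping groups with the lowest library in the siADAMTS12 group. TSPAN14 was at 3219, 3049 and 3300 against 3620, 3245 and 3470 (0.11 ± 0.06 SE, adjusted p = 0.226), and its value was 0.23 (adjusted p = 0.0173) when the columns were scaled to the same total. TSPAN33 was at 382, 403 and 414 against 403, 414 and 433, and TSPAN10 at 167, 178 and 171 against 228, 163 and 212. The low value of TSPAN10 in siADAMTS12 replicate 2 lay under the whole control range while the other 2 libraries lay above it.

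None of the other tested members passed the threshold. TSPAN12, a co-receptor of Frizzled 4 in Norrin signalling, was at 134, 109 and 105 normalized counts with siCTL and 117, 134 and 113 with siADAMTS12. TSPAN3, one of the more abundant members, was at 5885, 6034 and 5978 against 6176, 5596 and 5601 (log2 fold change -0.04 ± 0.06 SE). TSPAN31, which lies next to CDK4 and is co-amplified with it in sarcomas, was at 262, 223 and 190 against 290, 269 and 227 (0.22 ± 0.14 SE, limma adjusted p = 0.265). In all 3 genes the groups overlapped. TSPAN2, known from oligodendrocytes, was at 181, 165 and 159 against 162, 191 and 155, and TSPAN13 ranged only from 30 to 36 over the 6 libraries.

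With the replicate number as a block, which the libraries' shared deviations allow, 6 members were lower instead of 3: CD82, TSPAN18, TSPAN15, CD151, CD81 and TSPAN17. Over all 15637 genes tested the block gave 3059 lower and 2423 higher in place of 2424 and 1798, so calls rose in number across the whole table as well. Lower calls rose by a smaller proportion over all genes than among the members. With columns scaled to the same total, the median of all genes moved up by 0.12 on the log2 scale and 71.4% of all calls were higher instead of 42.6%, while the members showed 1 higher (TSPAN14) and 2 lower (CD82 and TSPAN18).

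CD82 and TSPAN18 are neighbours on chromosome 11, 106.1 kb apart on the same strand. Of the 24 genes annotated within 500 kb of the pair, 6 including both were tested, and 3 of those were lower and 0 higher. The window was set around the pair, so the pair's own lower calls are part of that count. ACCS (log2 fold change 0.26), EXT2 (-0.17) and PRDM11 (-0.11) did not pass the threshold, and over all genes 15.5% were lower. Beside the pair itself, the lower gene was TP53I11, on the opposite strand, at 4120, 4976 and 4763 normalized counts with siCTL and 2847, 3509 and 3126 with siADAMTS12 (log2 fold change -0.55 ± 0.09 SE, limma adjusted p = 0.000904). It shares 74 exon bases with TSPAN18. The library kit keeps the strand, the strand setting of the counting is not given in the sources used here, and reads in those bases cannot be assigned to either gene here. CD151 and TSPAN4, 3.0 kb apart on the same chromosome, had log2 fold changes of -0.21 and 0.11. TSPAN31 shares 1369 exon bases with CDK4 on the opposite strand, whose log2 fold change was 0.01 (limma adjusted p = 0.96). Also on the opposite strand, CD151 shares 257 exon bases with POLR2L (mean of 2918.7 normalized counts, log2 fold change -0.02). TSPAN10 shares 36 with NPLOC4 (mean of 8236.2, log2 fold change -0.08), and CD63 shares 237 with AC009779.2 (mean of 74.2). The same limit on assigning reads holds for these members.

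Among genes that work with tetraspanins, 16 of 26 tested binding partners fell and 0 rose, and their median log2 fold change was -0.41, beside 15.5% lower, 11.5% higher and a median of 0.005 over all genes. This list and those below were chosen with earlier results of these data known. The counts therefore describe the listed genes and cannot show that such genes fall more often than others. Without adjustment, 18 partners had p under 0.05 toward lower and 0 toward higher levels, with no count over all genes to set beside them. ITGB1, the integrin chain shared by most laminin and collagen receptors, was at 66659, 68000 and 75325 normalized counts with siCTL and at 39706, 42886 and 40774 with siADAMTS12 (log2 fold change -0.77, limma adjusted p = 2.43e-05). ITGA3, the laminin receptor chain that binds CD151 directly, was at 33040, 32995 and 33492 against 21351, 18513 and 20940 (-0.71, adjusted p = 2.36e-05). For both genes the groups were far apart.

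ICAM1, an adhesion receptor for leukocyte integrins, was at 3606, 4069 and 4220 against 2167, 2316 and 2336 (log2 fold change -0.80, limma adjusted p = 1.04e-05). ADAM17, the sheddase of tumour necrosis factor, was at 2254, 2143 and 2282 against 1406, 1445 and 1427 (-0.64, adjusted p = 1.47e-05). Further partners were picked for their link to a member after their values were seen. ADAM10, the protease that TspanC8 proteins escort, fell from 7386, 7597 and 7320 to 5414, 5945 and 5436 (log2 fold change -0.41 ± 0.06 SE, limma adjusted p = 0.000411). FZD4, which TSPAN12 assists, fell from 1107, 1009 and 959 to 641, 580 and 614 (-0.74, adjusted p = 4.59e-05), while TSPAN12 did not pass the threshold.

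ITGA6, another laminin receptor chain bound by CD151, fell with a log2 fold change of -0.40 (limma adjusted p = 0.0109), a call lost in 4 alternatives with adjusted p up to 0.0723 (0.0522 without siCTL replicate 3). The direct immunoglobulin partners of CD9 and CD81 did not pass the threshold, with IGSF8 at -0.01 (adjusted p = 0.971) and PTGFRN at 0.16 (adjusted p = 0.46). GAGGGAA was found in the 3' UTR of 2 of the 26 partners and of 0 of the 16 that fell, beside 15.6% of all genes searched. Among all genes holding it, 35.9% were lower. The shorter matches were not counted for this list, and the part of any match in these changes was not tested. Over the alternatives the partners showed 13 to 16 lower and 0 to 1 higher.

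Of 14 tested ADAM10 substrates, 9 fell and 0 rose, with a median log2 fold change of -0.32, beside 15.5% lower and 11.5% higher over all genes. CD44 is also on the partner list, a gene named for that overlap. Without adjustment, 9 had p under 0.05 toward lower and 1 toward higher levels, again with no count over all genes beside them. PRNP, the prion protein, was at 22742, 19348 and 24220 normalized counts with siCTL and at 11995, 10614 and 12095 with siADAMTS12 (log2 fold change -0.93, limma adjusted p = 1.7e-05). NOTCH2, a Notch receptor, was at 22416, 20986 and 21901 against 14130, 14923 and 13885 (-0.61, adjusted p = 2.95e-05). AXL, a receptor kinase for GAS6, and L1CAM, a neural adhesion molecule, had log2 fold changes of -0.53 and -0.65. Of the 8 substrates that fell and could be searched, 3 held GAGGGAA in the 3' UTR: CDH2, NOTCH2 and PTK7, named for the match. They were the only holders among 13 substrates searched, beside 15.6% of all genes searched. Over all genes with that match 35.9% were lower, and its part here was not tested. Over the alternatives 6 to 9 substrates were lower and 0 to 2 higher.

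Of 34 tested genes of extracellular vesicle formation, 3 were higher and 9 lower, with a median log2 fold change of 0.0042, beside 11.5% higher and 15.5% lower over all genes. PDCD6IP (ALIX), which links syntenin to the ESCRT machinery, was at 7146, 6763 and 7043 normalized counts with siCTL and at 3429, 3659 and 3516 with siADAMTS12 (log2 fold change -0.98, limma adjusted p = 4.24e-07). CHMP6, an ESCRT-III subunit, went the other way, from 927, 847 and 837 to 1768, 1679 and 1695 (0.98, adjusted p = 1.7e-06). The proteoglycans SDC4 and SDC1, which syntenin binds, fell with log2 fold changes of -0.60 and -0.54. Their relatives on the list, SDC2 and SDC3, were picked after their values were seen. SDC2 rose (0.45, limma adjusted p = 0.000454) and SDC3 fell (-0.37, adjusted p = 0.00292). SDCBP, syntenin itself, picked after its values were seen, was at 0.13 (adjusted p = 0.155, or 0.0125 with columns scaled to the same total). PDCD6IP and SDC4 are among 4 of the 9 lower genes that hold GAGGGAA. Of the 34 genes searched 7 hold it, beside 15.6% of all genes searched. Over all genes with that match 35.9% were lower, and its part here was not tested. With columns scaled to the same total, 8 genes of this list were higher and 6 lower, and over all 15637 genes 3868 were higher and 1546 lower.

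Palmitoyltransferases attach the lipid that holds tetraspanin assemblies together, and 4 of 22 tested were higher and 6 lower, beside 11.5% and 15.5% over all genes. ZDHHC5 was at 7976, 7642 and 8268 normalized counts with siCTL and at 3911, 3847 and 3862 with siADAMTS12 (log2 fold change -1.04, limma adjusted p = 2.71e-07), and its 3' UTR holds GAGGGAA. Of the 22 genes searched 4 hold it, as do 2 of the 6 lower, beside 15.6% of all genes searched. Over all genes with that match 35.9% were lower, and its part here was not tested. ZDHHC23 fell from 365, 348 and 383 to 196, 230 and 176 (-0.87), and ZDHHC20 had a log2 fold change of -0.44. ZDHHC12 rose from 705, 798 and 679 to 1065, 1168 and 1068 (0.60, adjusted p = 0.000258). ZDHHC2, picked after its values were seen because it acts on CD9 and CD151, fell with a log2 fold change of -0.31 (limma adjusted p = 0.00459). With columns scaled to the same total, 7 were higher and 4 lower, and over all genes 3868 were higher and 1546 lower.

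**Figure D5:**
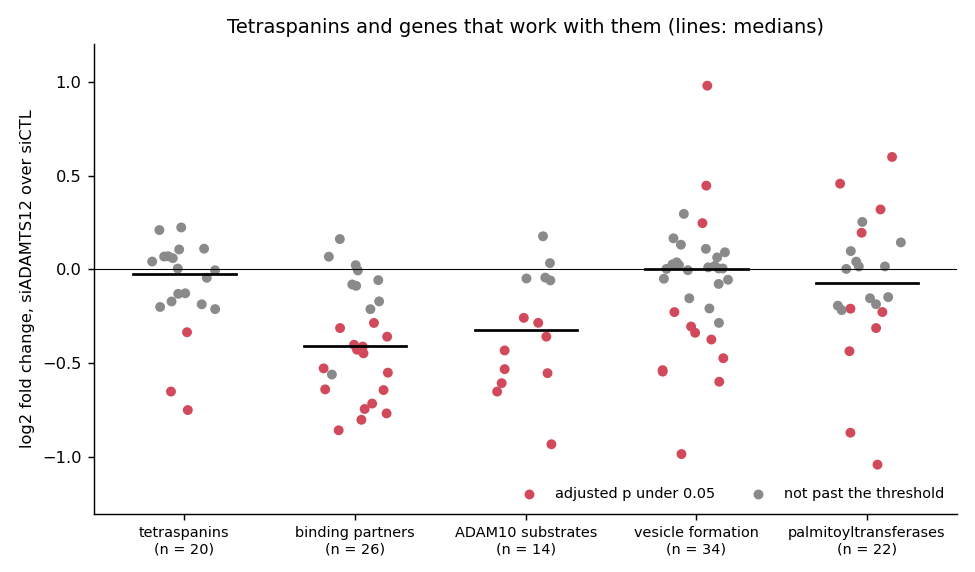
Log2 fold change (siADAMTS12 over siCTL) of each tested gene in the tetraspanin family and in 4 lists of genes that work with it, with lines for medians and red points for adjusted p under 0.05. The binding partners (median -0.41) and ADAM10 substrates (median -0.32) lie mostly below 0, and the tetraspanins (median -0.02) lie on both sides of it. The lists were chosen with earlier results of these data known.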

How the data were processed

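RNA of 6 LX-2 libraries (TruSeq Stranded mRNA, NovaSeq, per the labels' protocols) was analysed from 1 table of normalized counts, treated as a score because the authors deposited them as whole numbers after normalization. STAR, HTSeq, DESeq2 and GRCh38 are named in the submitters' processing notes, without versions or settings. Library sums of 30678468 to 34072515 are of normalized values, so the raw depth is unknown and no count model was used.

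Values were tested as log2(value + 1) with limma 3.58.1 (R 4.3.3; intensity trend; 2-sided; Benjamini-Hochberg over 15637 genes with a mean of at least 10; threshold 0.05). Fold changes are on that scale, which understates the change of low genes. On simulated data (5 draws, 200 genes changed among 15470 to 15505 tested), 80.0% of genes changed by 0.5 on the log2 scale were recovered, 96.1% at 1 and 100% at 2. Of all calls made there, 3.9% were of unchanged genes. The simulation gave every gene the same fixed dispersion, no shared replicate deviations and fewer changed genes than were called here. These rates therefore check the method and are not the power for any single member.

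Libraries with the same replicate number deviated together (correlations 0.13 to 0.37, against -0.19 to 0.06 for different numbers), so a replicate block was also fitted. The value of 0.37 was for replicate 1. Replicates 2 and 3 were each at 0.13, beside 0.06 across those numbers. Deviations were taken from each group's mean, so higher values for same numbers go with lower values for different numbers. The pairing comes from the numbers in the sample titles.

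Every member is named. From each list of related genes the text names the members past the threshold with the smallest adjusted p (at most 4), plus genes that the text says were picked later or named for an overlap or a guide match. The members and lists were chosen with earlier results of these data known. Transcript lengths and 3' UTRs came from GENCODE release 29 (APPRIS principal transcript, then the longest 3' UTR). UTRs under 30 bases were not searched. Protein and promoter sequences were not used here.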

Additional observations from a re-analysis of the deposited data

How the results depend on the processing

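CD82 and TSPAN18 stayed past the threshold in all 14 alternatives, with log2 fold changes of -0.84 to -0.62 and -0.75 to -0.51 and adjusted p of at most 0.00536 and 0.0311. The number of members higher was 1 with columns scaled to the same total and 0 to 1 when a library was left out. The number lower was 6 with the replicate block and 2 to 4 when a library was left out. Beside CD151, CD81 and TSPAN17 the block changed no member's call. CD151 and CD81 passed without siADAMTS12 replicate 1 (adjusted p = 0.0251 and 0.0227), and TSPAN17 without siCTL replicate 3 (0.0497). The other normalizations moved these genes toward 0. With columns scaled to the same total, CD151 was at -0.09 (limma adjusted p = 0.461), CD81 at -0.08 (0.54) and TSPAN17 at -0.05 (0.688). Quantile normalization gave -0.05 for CD151 (limma adjusted p = 0.717), -0.05 for CD81 (0.73) and -0.11 for TSPAN17 (0.316). Signs changed only in values not past the threshold. With columns scaled to the same total, CD9 was at 0.12, TSPAN3 at 0.08 and IGSF8 at 0.12. With quantile normalization, CD9 was at 0.0611, TSPAN3 at 0.0686, CD63 at 0.0836, TSPAN2 at -0.0248 and IGSF8 at 0.0156. With 1 library left out, log2 fold changes ran from -0.0363 to 0.12 for TSPAN6, -0.0473 to 0.0236 for CD9, -0.0043 to 0.18 for TSPAN12, -0.0845 to 0.0653 for TSPAN2, -0.0417 to 0.048 for IGSF8 and -0.0728 to 0.0797 for CDK4. The cause of these changes was not tested. No raw depth is known, so the precision of low members such as TSPAN13 cannot be given from counts.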

Other observations

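Tetraspanins with names outside the symbol rule were measured as well. PRPH2, a photoreceptor disc tetraspanin, was at 281, 244 and 237 normalized counts with siCTL and at 293, 301 and 279 with siADAMTS12 (log2 fold change 0.20, limma adjusted p = 0.185, or 0.0346 with columns scaled to the same total), with overlapping groups. Its partner ROM1 was at 74, 76 and 70 against 62, 77 and 43 (-0.31, adjusted p = 0.319). UPK1A, a urothelial plaque tetraspanin, ranged from 8 to 13, and UPK1B had a mean of 2.33.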
